A study of Zea mays with 8 samples.

Results

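The glutathione S-transferase family of maize (Zea mays) was examined on an Affymetrix maize GeneChip, on which each transcript is read through several short probes that form 1 probe set. Members were the probe sets whose gene carries, as symbol or synonym, the name gst followed only by a number. This gave 35 of the 17734 probe sets on the array, and they read 31 genes. Measurements came from 8 arrays, each hybridised with RNA from the whole aerial part, meristems included, of 12 pooled seedlings cut 11 days after planting. Wild-type siblings (4 pools) have the chromosome 5 short arm in 2 copies, and DpDf siblings (4 pools) have most of it in 3. The DpDf plants are duplicate-deficient: from the T5-6b translocation they have, besides a normal chromosome 6, a 65 chromosome that adds most of that arm and lacks the end of the chromosome 6 satellite. Both genotypes share the B73 inbred background and came from the same selfed DpDf parents, with 30 seedlings typed per replicate by a marker beside the chromosome 5 break. Replicates 1 and 3 descend from seed source 49647-3self and replicates 2 and 4 from 49646-1self, and a replicate number marks 1 sowing from which a wild-type and a DpDf pool were both made. Each array reads a pool, so the spread between arrays does not show the spread between single plants.

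Glutathione S-transferases join the tripeptide glutathione to reactive or toxic molecules, and the tagged products are carried into the vacuole by ABC transporters. Plants hold large families of these enzymes, often in tandem arrays, and many also bind flavonoids or reduce organic peroxides. In maize they are best known for breaking down chloroacetanilide and triazine herbicides and for their induction by herbicide safeners.

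The family was spread over 9 chromosomes, with 12 of the 31 genes on chromosome 1, 5 on chromosome 3 and 4 on chromosome 9. In the gene order of the RefSeq table several members were direct neighbours. On chromosome 1, gst37, GST39, GST38 and gst30 followed each other with 0 protein-coding genes between them, and gst42 and gst32 lay next to each other, with 3 genes between gst32 and gst37. A second chromosome 1 group held gst11, gst12 and gst10, and further neighbouring pairs were gst28 with gst7 on chromosome 3, gst13 with gst9 on chromosome 9, and GST25 with gst35 on chromosome 9. The chromosome 5 members, gst17 and gst24, were genes 2627 and 3558 of 3825 counted from the short-arm end, on the long-arm side. The chromosome 6 members, gst19 and gst41, were genes 1181 and 2025 of 2822, far from the short-arm tip. By this order every member lay outside the duplicated and the deficient pieces.

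Of the 35 member probe sets, 28 had a mean signal at or above the filter value of 27.0 on the linear scale of deposited intensity and were tested; they read 26 genes. The other 7 probe sets ranged from 5.34 to 26.0 over all pools. They include the sole probe sets of gst8 (8.69 to 12.5), gst18 (7.79 to 9.65), gst32 (5.34 to 5.98), gst35 (11.6 to 13.7) and GST39 (9.87 to 12.2). The rest are a second probe set of gst13 (6.34 to 7.28) and another of gst31 (17.4 to 26.0). These dim probe sets were outside the reported fit, and in the fit without a filter their smallest limma adjusted p was 0.429. Their signal does not show that the genes are silent.

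**Figure D1:**
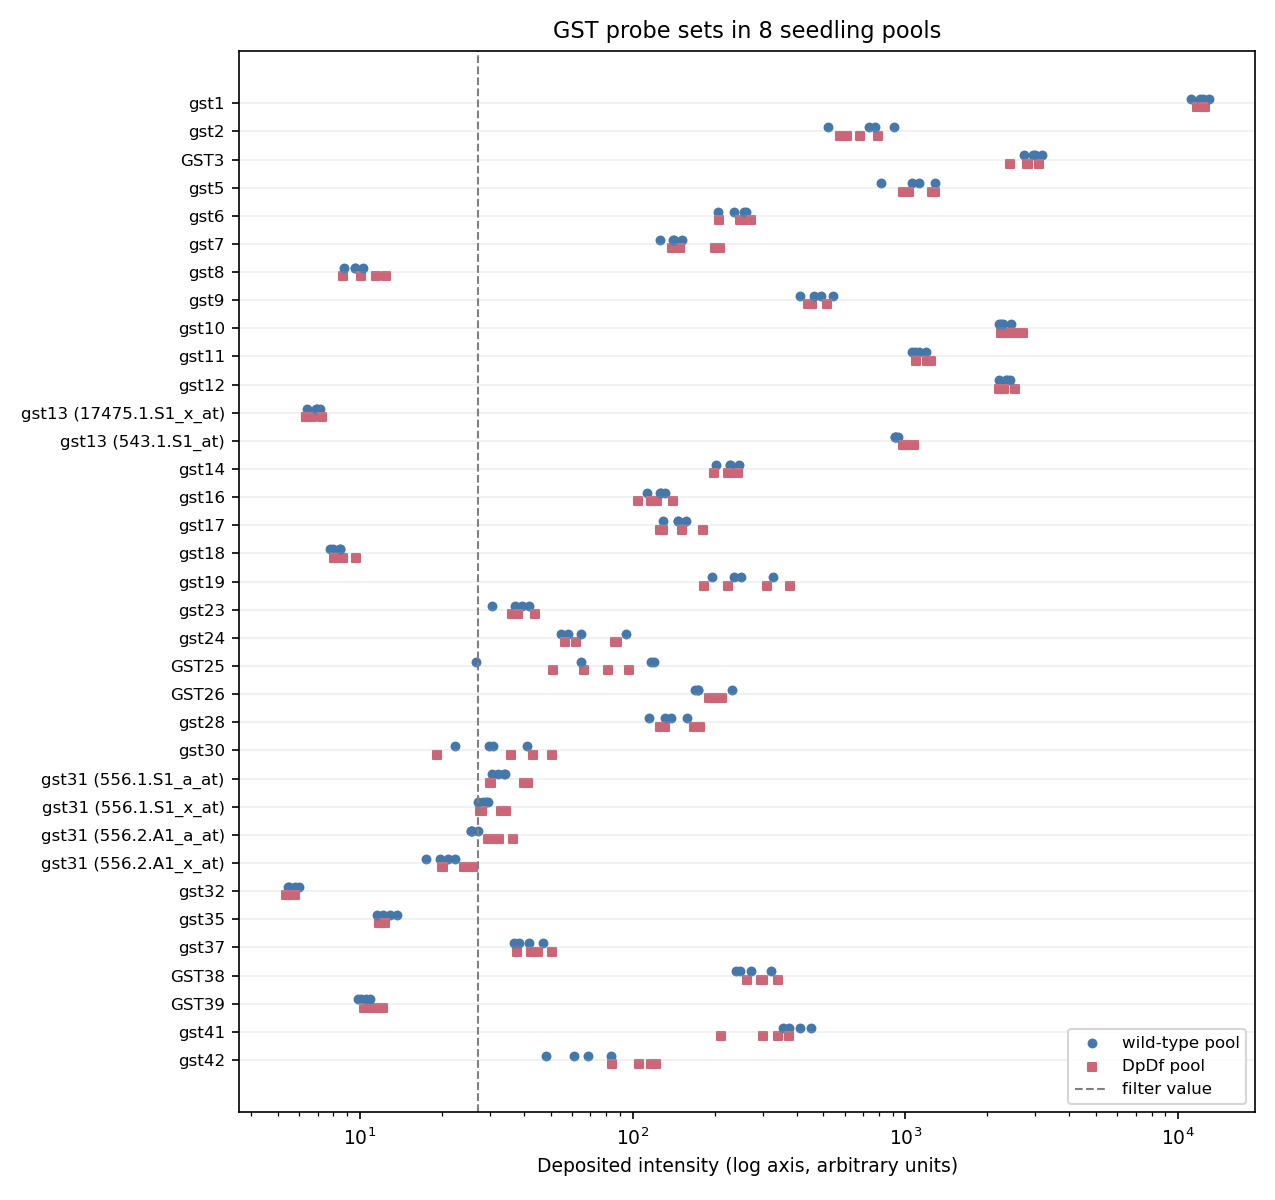
Deposited intensity (log axis, arbitrary units) of all 35 glutathione S-transferase probe sets in the 4 wild-type pools (circles) and 4 DpDf pools (squares), with the filter value of 27.0 as a dashed line. Pools of both genotypes lie close together for most probe sets. gst42 has the largest difference between the genotype means, although its groups nearly meet, and 7 probe sets lie wholly below the line.

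gst42 was the 1 tested member of the family called higher in DpDf, and 0 were called lower. Differences between genotypes are given on the log2 scale as DpDf minus wild type with their standard error (SE), from limma on 4 pools of each genotype, and a probe set was called when its adjusted p, taken over all 12335 tested probe sets, was under 0.05. Of the 28 tested member probe sets, 1 was called higher and 0 were called lower. That is a share of 3.57%, against 4.87% of all tested probe sets (4.03% called higher and 0.843% called lower). The array share was not limited to genes outside the duplicated and deficient pieces, as the members are by gene order. At an unadjusted p under 0.05 there were 4 of 28 members (14.3%), against 17% of the array. The 95% intervals of 22 of the 28 members lay inside a 1.5-fold change in either direction (0.58 on the log2 scale), as did those of 86.7% of all tested probe sets. The 6 exceptions were gst42, gst41, gst7, gst30, gst19 and GST25.

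Direction leaned upward. A positive difference was measured for 21 of 28 members (75%) and for 42.8% of all tested probe sets, with medians of 0.093 and -0.023. The members were measured on the same pools, so this count is a description. gst31 enters it with several probe sets, 1 of which passed the filter only through its DpDf pools. gst42, already known as called when the family was chosen, is counted too. With 1 probe set for each of the 26 tested genes the median was 0.090. Per pool, the 26 tested genes, each set against its own wild-type mean, had a median of -0.14, 0.058, 0.020 and 0.017 in wild-type replicates 1 to 4 and -0.062, 0.089, 0.042 and 0.16 in DpDf replicates 1 to 4. Averaged by genotype these medians came to -0.011 ± 0.087 for the wild type and 0.058 ± 0.094 for DpDf (SD, n = 4), a difference of 0.069 that was not tested. Within the replicate pairs the median was higher in DpDf in 4 of 4, by 0.077, 0.031, 0.022 and 0.15. Over all tested probe sets the pool medians were -0.0013, -0.025, 0.025 and 0.0046 in wild-type replicates 1 to 4. In DpDf replicates 1 to 4 they were -0.0035, -0.023, -0.019 and -0.028.

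**Figure D2:**
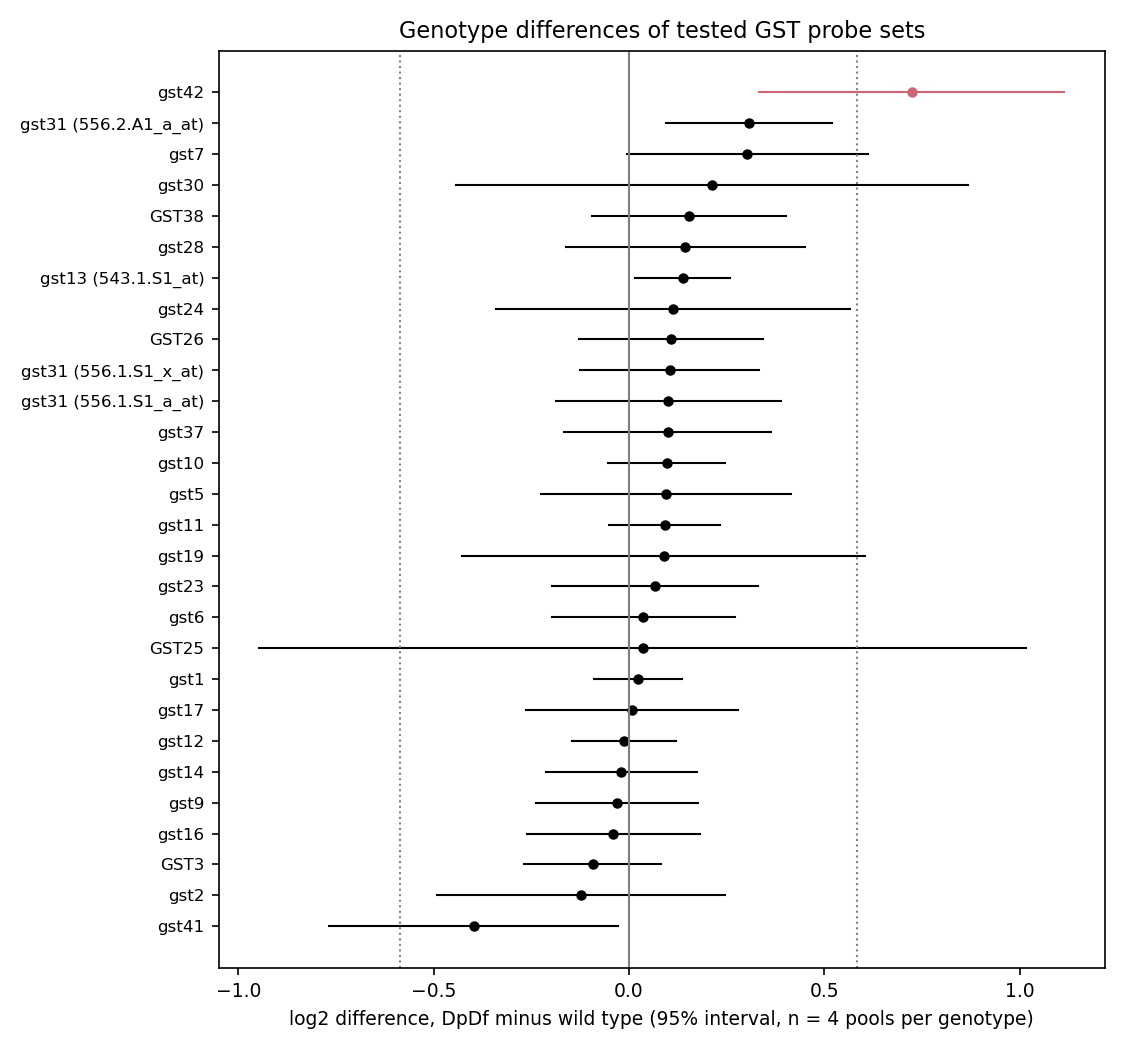
Log2 difference, DpDf minus wild type, for the 28 tested probe sets with 95% intervals of the limma fit (n = 4 pools per genotype). Dotted lines mark a 1.5-fold change either way, and the called probe set, gst42 at 0.72, is coloured. The other points lie between -0.40 and 0.31.

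gst42 (LOC541850, chromosome 1) had intensities of 48.3, 60.9, 83.7 and 68.8 in wild-type replicates 1 to 4 and of 106.0, 121.7, 83.8 and 116.6 in DpDf replicates 1 to 4. The groups did not overlap, but the highest wild-type pool and the lowest DpDf pool, both of replicate 3, met at nearly the same value. DpDf groups lay wholly above wild type for 3 of 28 members (10.7%) and for 6.52% of all tested probe sets. These members include a gst31 probe set that passed the filter only through its DpDf pools. For gst42 the log2 means were 6.00 ± 0.33 (SD, n = 4) and 6.73 ± 0.24, a 1.65-fold rise (95% interval 1.26 to 2.17, limma adjusted p = 0.0460). By pair, the difference was 1.13, 1.00, 0.0028 and 0.76 in replicates 1 to 4. Because gst42 was already known as a called gene when the family was chosen, this repeats that call and is no further evidence for it.

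The gst42 call lay close to the threshold. With replicate number as a block it held (limma adjusted p = 0.0321). Leaving out either pool of replicate 3 raised the difference to 0.85 (without the wild-type pool, limma adjusted p = 0.0227) or 0.84 (without the DpDf pool, 0.0357). Leaving out any other pool ended the call, with differences of 0.59 to 0.76. The limma adjusted p was then 0.0749, 0.0860 and 0.0980 without wild-type replicates 1, 2 and 4, and 0.103, 0.129 and 0.123 without DpDf replicates 1, 2 and 4. An index of RNA quality, the 3' minus 5' log2 signal of 5 maize control transcripts, averaged 0.91 ± 0.13 in the wild-type and 1.20 ± 0.23 in the DpDf pools (SD, n = 4), highest in DpDf replicate 1 (1.52). The index was higher in DpDf in each pair, so it is partly confounded with genotype. With this index as a covariate the gst42 difference was 0.65 (SE 0.24, against 0.17 in the reported fit). Its limma adjusted p was then 0.334 (unadjusted p = 0.0260). The part of RNA quality in the call was not tested further.

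The neighbours of gst42 on chromosome 1 had smaller measured differences, none of them called. GST38 had intensities of 247.7, 322.3, 240.3 and 272.0 in wild-type replicates 1 to 4 and of 300.7, 340.5, 263.0 and 295.8 in DpDf. Each of the 4 pairs had its higher value in DpDf, yet the groups overlapped, since wild-type replicate 2 exceeded 3 of the DpDf pools (0.15, SE 0.11, limma adjusted p = 0.539). Under the replicate block the SE of this difference was 0.062, at a limma adjusted p of 0.169 (unadjusted p = 0.0399). The sign of this difference turned with the RNA quality covariate (-0.0092).

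gst30 had intensities of 22.3, 29.6, 41.0 and 30.8 in wild-type replicates 1 to 4 and of 19.2, 50.5, 35.9 and 43.1 in DpDf (0.21, SE 0.29, limma adjusted p = 0.772). This value rested on single pools, with 0.036 when DpDf replicate 2 was left out, 0.11 for DpDf replicate 4 and 0.065 for wild-type replicate 1, but 0.50 for DpDf replicate 1 and 0.36 for wild-type replicate 3. It was 0.65 with the RNA quality covariate and 0.16 with a pseudocount of 16, and it passed in none of these fits. Signal was low, with both pools of replicate 1 under the filter value of 27.0. Both pairs of seed source 49647-3self had negative differences (-0.21 and -0.19), and both pairs of 49646-1self had positive ones (0.77 and 0.48). The interaction of genotype with seed source did not pass (0.83, SE 0.50, limma adjusted p = 1.00, unadjusted p = 0.134). gst37 differed by 0.099 (SE 0.12). gst32 and GST39, the remaining genes of this stretch, were below the filter. Whether gst42 differed from its neighbours was not tested.

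The genes of the other chromosome 1 group were bright and steady. gst10 ranged from 2212 to 2699 over the 8 pools, gst11 from 1061 to 1248 and gst12 from 2199 to 2530. Their differences were 0.097 (SE 0.067), 0.091 (SE 0.063) and -0.012 (SE 0.060), with intervals that excluded changes beyond 0.25 on the log2 scale.

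The members with well-studied enzymes did not differ detectably. gst1, which encodes the constitutive herbicide-conjugating enzyme GST I, ranged from 11146 to 12955 over the 8 pools and differed by 0.023 (SE 0.050, interval -0.090 to 0.13). GST3, whose product GST III also acts on chloroacetanilides, had intensities of 3161, 2731, 2998 and 2951 in wild-type replicates 1 to 4 and of 2420, 2801, 3089 and 2822 in DpDf (-0.093, SE 0.078). DpDf replicate 1 was its lowest pool. The gene listed as gst2, with the further names GST4 and GSTIV, encodes the safener-inducible GST IV. It ranged from 520.3 to 911.7 in wild type and from 577.6 to 792.5 in DpDf (-0.12, SE 0.16). The name gst4 is also attached to the GST3 gene, so the gene numbers here (LOC542311 for gst2, LOC541990 for GST3) settle which is meant.

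gst41, on chromosome 6, had the lowest difference of the family. Its intensities were 410.2, 373.7, 450.7 and 355.0 in wild-type replicates 1 to 4 and 210.7, 301.8, 342.4 and 374.0 in DpDf. DpDf replicate 1 was far the lowest pool, replicate 4 was slightly higher in DpDf, and the groups overlapped. The difference was -0.40 (SE 0.17, limma adjusted p = 0.256, unadjusted p = 0.0380), and -0.23 without DpDf replicate 1. Under the replicate block its SE was 0.14, at a limma adjusted p of 0.122. The pool with the lowest gst41 was also the pool with the highest 3' minus 5' index, 1.52, and with that index as a covariate the difference was -0.0074 (limma adjusted p = 0.994). The part of RNA quality in this value was not tested.

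gst31, read by 4 probe sets, gave unequal answers. The probe set with the largest difference had intensities of 27.1, 25.9, 25.5 and 25.6 in wild-type replicates 1 to 4 and of 36.4, 29.4, 31.1 and 32.2 in DpDf. All DpDf pools were above all wild-type pools (0.31, SE 0.095, unadjusted p = 0.00934, limma adjusted p = 0.121). Its wild-type mean of 26.0 was under the filter value of 27.0, so it was tested only through its DpDf pools (mean 32.3). Its place in the counts of positive differences, of separated groups, of unadjusted p and of pairs is therefore no evidence of a rise. The other 2 tested probe sets of this gene differed by 0.10 (SE 0.13) and 0.10 (SE 0.10), and each was higher in DpDf in 2 of 4 pairs. Signal of all 4 lay near the filter value, and the names ending in a_at or x_at mark probes that may be shared between transcripts.

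gst13, on chromosome 9, was the most even member. Its tested probe set gave 928.5, 919.2, 916.5 and 944.3 in wild-type replicates 1 to 4 and 1074, 977.6, 1036 and 993.1 in DpDf. The groups did not overlap, and the 1.10-fold difference (0.14 on the log2 scale, SE 0.054, unadjusted p = 0.0308) did not pass after adjustment (limma adjusted p = 0.231). The dim second probe set of gst13 had a mean difference of -0.042, at intensities too low to test. The neighbouring gst9 ranged from 412.2 to 541.4 over all pools and differed by -0.031 (SE 0.093).

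On chromosome 3, gst7 had intensities of 126.2, 151.4, 141.3 and 140.8 in wild-type replicates 1 to 4 and of 139.7, 200.9, 149.5 and 209.6 in DpDf. The DpDf pools of replicates 2 and 4, both from seed source 49646-1self, stood well above the rest, whereas those of replicates 1 and 3 lay among the wild-type values. The genotype difference was 0.30 (SE 0.14), with a limma adjusted p of 0.305 alone and of 0.0810 under the replicate block. The interaction with seed source was 0.38 (SE 0.14, unadjusted p = 0.0327, limma adjusted p = 1.00). Its neighbour gst28 had 114.6, 157.8, 131.8 and 138.2 in wild-type replicates 1 to 4 and 132.0, 176.3, 125.6 and 168.1 in DpDf (0.14, SE 0.14, limma adjusted p = 0.647). Under the replicate block the gst28 difference had an SE of 0.077 and a limma adjusted p of 0.281.

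The remaining tested members differed by between -0.040 and 0.11. In rising order these were gst16 (-0.040), gst14 (-0.020), gst17 (0.0085), GST25 (0.035), gst6 (0.036), gst23 (0.067), gst19 (0.089), gst5 (0.094), GST26 (0.11) and gst24 (0.11). The smallest limma adjusted p among them was 0.660, for GST26.

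**Figure D3:**
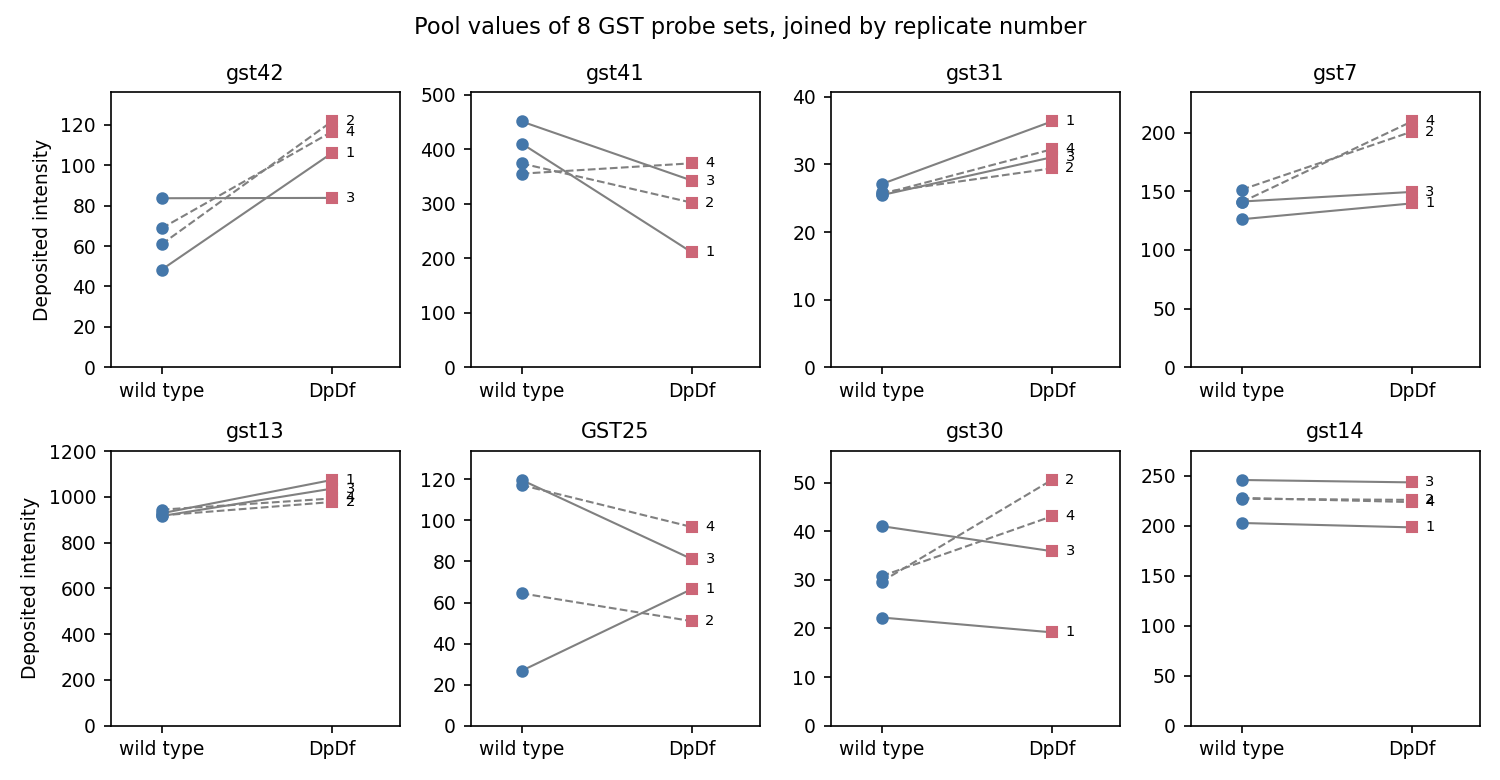
Deposited intensity (linear axis from 0) of 8 probe sets in each wild-type and DpDf pool, with lines joining pools of the same replicate number (solid for seed source 49647-3self, dashed for 49646-1self). The gst31 panel shows its probe set with the largest difference and the gst13 panel its tested probe set. gst42 is higher in DpDf in 3 pairs and level in replicate 3, and gst14 is nearly level within each pair. For gst30 the pairs of the 2 seed sources have differences of opposite sign, but the interaction with seed source did not pass.

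How much a member varied between pools differed widely. The median within-genotype SD was 0.17 on the log2 scale for the 28 members and 0.13 for all tested probe sets. For gst2, gst19, gst24, GST25, gst30, gst41 and gst42 (7 of 28) it lay above the 90th percentile of the array, and for 9 of 28 it lay under the 50th. gst13 had an SD of 0.045, at percentile 2.63, and gst1 one of 0.073, at percentile 13.5.

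GST25, described after its values were seen, was the most variable, with an SD of 0.77 at percentile 99.3. Its intensities were 26.8, 64.5, 119.7 and 117.2 in wild-type replicates 1 to 4 and 66.6, 50.9, 81.2 and 96.8 in DpDf. Wild-type replicate 1 was the lowest pool of all, and DpDf was above wild type in that pair (1.31) and below it in the other 3 (-0.34, -0.56 and -0.28). The genotype difference of 0.035 (SE 0.44) therefore has an interval from -0.95 to 1.02, and a change in either direction was not detectable. Its sign turned when 1 of 4 pools was left out, namely the wild-type pool of replicate 1 (-0.43) or of replicate 2 (-0.0058), or the DpDf pool of replicate 3 (-0.024) or of replicate 4 (-0.11).

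Pools of the same replicate number resembled each other. gst14, also chosen after its values were seen, shows this most plainly. It had intensities of 202.7, 226.9, 245.7 and 227.8 in wild-type replicates 1 to 4 and of 198.3, 225.8, 243.3 and 223.6 in the DpDf pools of the same numbers. It was the 1 tested member that was lower in DpDf in all 4 pairs, with pair differences from -0.032 to -0.0070, against 18.1% of all tested probe sets. All 4 pairs were higher in DpDf for 6 of 28 members (21.4%; gst7, gst11, gst13, gst31, GST38 and gst42) and for 15% of all tested probe sets. With the replicate block the SE became smaller for 24 of 28 members (85.7%) and for 87.5% of all tested probe sets. gst42 was again the lone member called with that block (3.57%, against 10.2% of all tested probe sets, 6.81% called higher and 3.35% lower). With the RNA quality covariate 0 members were called by limma and 1 had an unadjusted p under 0.05; over all tested probe sets 2.73% were called, 2.47% higher and 0.259% lower.

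By pair, the share of tested members higher in DpDf was close to the array share in replicate 2 and above it in the others. The counts were 19, 15, 17 and 21 of 28 in replicates 1 to 4, or 67.9%, 53.6%, 60.7% and 75%. Over all tested probe sets the shares were 50.3%, 51.1%, 41.7% and 42.5%. gst31 enters the counts with several probe sets, 1 of which passed the filter only through its DpDf pools.

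Several members differed more between seed sources than between genotypes, though 0 passed the test. The difference of 49646-1self minus 49647-3self was fitted with genotype as a term and replicate number as a random block. Each seed source is represented by 2 sowings, so seed source and sowing cannot be told apart. Of the 28 members, 0 were called (0.00811% of all tested probe sets were called), and the smallest limma adjusted p was 0.215. At an unadjusted p under 0.05 there were 8 members (28.6%), and these 8 were higher in 49646-1self, whereas 13.8% of all tested probe sets reached that level and 4.79% did so as higher. They were gst2, gst6, gst7, gst17, gst19, gst24, gst28 and GST38. A positive difference was measured for 22 of 28 members (78.6%) and for 48% of all tested probe sets, with medians of 0.16 and -0.0072.

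gst24 had intensities of 94.4, 64.9, 86.5 and 87.7 in the pools of 49646-1self (wild-type replicates 2 and 4, then DpDf replicates 2 and 4) and of 58.1, 54.6, 62.1 and 56.3 in those of 49647-3self (replicates 1 and 3 in the same order). The seed sources did not overlap (0.52, SE 0.13, limma adjusted p = 0.215). gst28, given above by pool, was also wholly higher in 49646-1self (0.34, SE 0.092, limma adjusted p = 0.227).

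gst19 had 326.2, 235.0, 377.5 and 311.3 in 49646-1self and 249.8, 194.9, 182.0 and 223.3 in 49647-3self, in the same order. The sources overlapped, since wild-type replicate 4 was below wild-type replicate 1 (0.55, SE 0.17, limma adjusted p = 0.258). For gst7 the seed sources differed by 0.32 (SE 0.11, limma adjusted p = 0.283). Pools of 49646-1self lay wholly above those of 49647-3self for 4 members (14.3%; gst6, gst17, gst24 and gst28) and for 2.69% of all tested probe sets. The reverse held for 0 members and for 5.51% of all tested probe sets.

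The genotype effect was not shown to depend on seed source for any member. In the interaction fit 0 of 28 members and 0 of 12335 probe sets (0%) were called by limma, and 1 member, gst7, and 2% of all tested probe sets had an unadjusted p under 0.05.

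**Figure D4:**
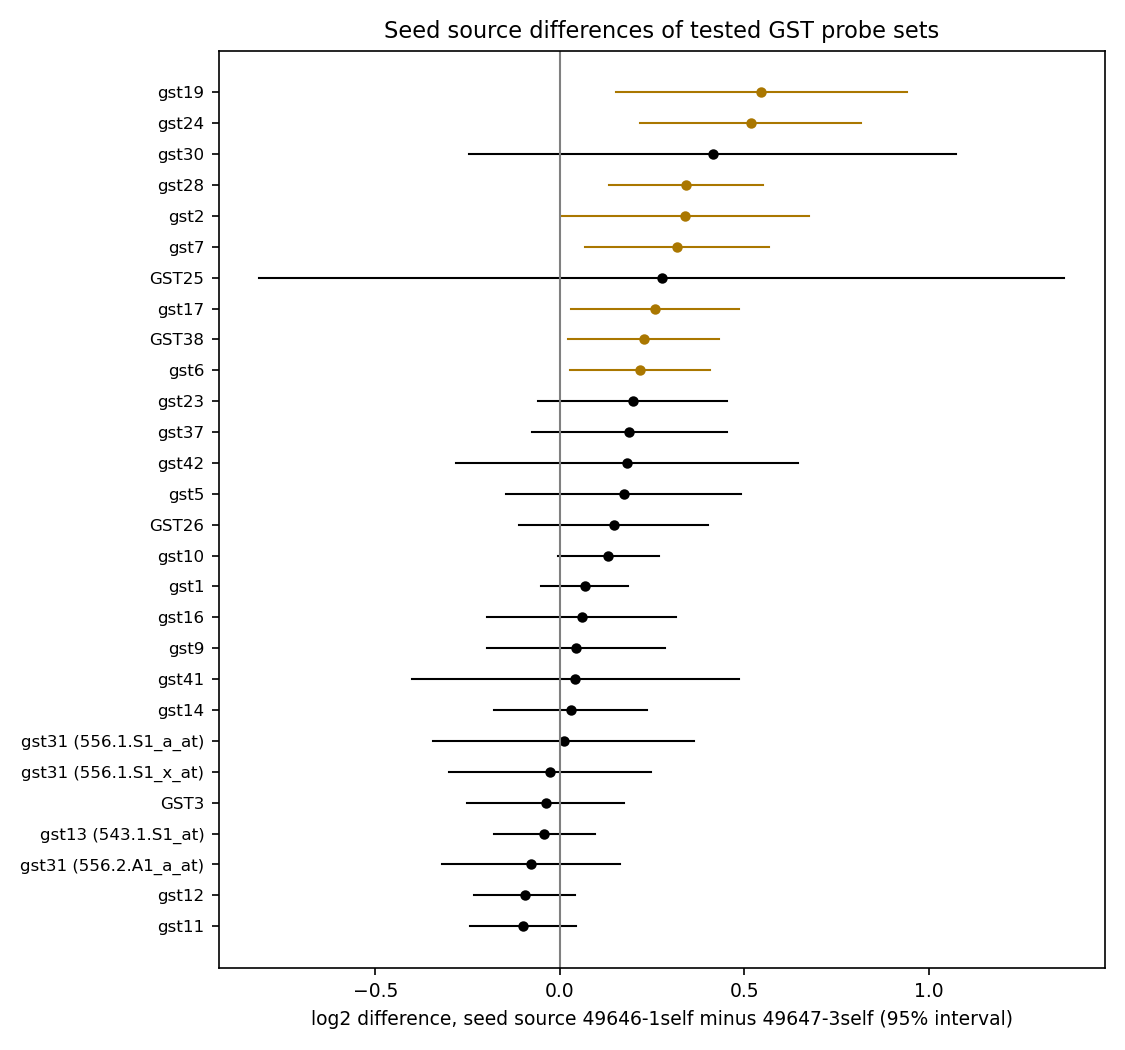
Log2 difference, seed source 49646-1self minus 49647-3self, for the 28 tested probe sets with 95% intervals of the limma fit with replicate number as a random block (4 pools per source from 2 sowings). The 8 coloured probe sets have an unadjusted p under 0.05 and lie to the right of 0. None passed after adjustment.

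Other genes of glutathione and detoxification biology were few on the annotated part of the array, and 0 of the 32 tested genes in 5 lists were called (limma adjusted p under 0.05). At an unadjusted p under 0.05, 2 were higher and 3 lower, together 15.6%, near the 17% of all tested probe sets (4.87% of which were called). A positive difference was measured for 17 of the 32, and the median was 0.0082. In the list of glutathione synthesis and redox genes (6 tested, 2 with a positive difference, median -0.078), gsh1 and gsh2, which encode the enzymes of glutathione synthesis, differed by -0.064 (SE 0.066) and -0.12 (SE 0.080). gor1, encoding glutathione reductase, differed by 0.067 (SE 0.093).

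apx, an ascorbate peroxidase gene, had intensities of 1368, 1201, 1254 and 1248 in wild-type replicates 1 to 4 and of 930.9, 1016, 1094 and 1125 in DpDf. Every DpDf pool was below every wild-type pool (-0.29, SE 0.074), with a limma adjusted p of 0.0643 alone and of 0.0492 under the replicate block. Groups with DpDf wholly lower were found for 4.8% of all tested probe sets. With the RNA quality covariate the adjusted p was 0.621.

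The reactive oxygen list, matched by gene name, had 10 tested genes, 5 with a positive difference. An alternative oxidase gene in it, aox1 (LOC542074), had intensities of 56.8, 73.8, 116.3 and 111.3 in wild-type replicates 1 to 4. Its DpDf values were 46.6, 51.8, 55.5 and 69.5. DpDf was lower in each pair, while the groups overlapped (-0.64, SE 0.23), with a limma adjusted p of 0.185 alone, of 0.0148 under the replicate block and of 0.770 with the RNA quality covariate. PER1 (LOC542029), a peroxidase gene, differed by -0.21 (SE 0.073) and the catalase gene cat1 by 0.24 (SE 0.091).

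The anthocyanin and flavonoid list had 4 tested genes, 2 of them with a positive difference; a2, encoding anthocyanidin synthase, differed by -0.18 (SE 0.093) and pl1, a MYB regulator of the pathway, by 0.11 (SE 0.15). The benzoxazinoid list, named for defence compounds of young maize, had 5 tested genes, matched by name. Of these, 4 had a positive difference, among them igl1 (0.0056, SE 0.096), whose part in benzoxazinoid synthesis was not checked. glu1, encoding a beta-glucosidase, differed by 0.24 (SE 0.077, limma adjusted p = 0.149) and glu2 by 0.17 (SE 0.11). Among other genes listed for detoxification (8 tested, 4 with a positive difference), MRP2, named for the ABC transporters that move glutathione conjugates, differed by -0.29 (SE 0.14). opr1, an oxophytodienoate reductase gene, differed by 0.63 (SE 0.37). That list was matched by name alone. It includes CYP88A1, also named dwarf3, and MRP4, also named lpa1, whose part in detoxification was not checked.

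As a check of the tissue, 9 of the 10 genes matched as green shoot markers had mean intensities from 2090 to 17432. The remaining match, PDK1 (458), carries a synonym of another kinase gene. The endosperm genes FL2, dzs18 and o2 were at 4.91 to 8.59, and zp27 at 124. The root pattern matched zrp4 (66.0), which was not called. The pollen pattern matched, by name alone, plt2 (15139), the 1 marker gene called in the reported fit (0.19, SE 0.046, limma adjusted p = 0.0409). The summed green shoot signal ran from 77989 to 96734 in wild-type pools and from 92463 to 104265 in DpDf pools, with a positive difference for 9 of 10 genes, against 42.8% of all tested probe sets, and 0 called, against 4.87%. The 3 shoot meristem markers summed to 494 to 676 in wild type and 457 to 552 in DpDf, with 0 called. Under the replicate block 1 green shoot gene (psad1) was called higher and 2 meristem genes (kn1 and lg3) lower. These directions were called for 6.81% and 3.35% of all tested probe sets. The other meristem marker, knox7, differed by 0.032 (SE 0.058). With the RNA quality covariate the limma adjusted p was 0.771 for psad1, 0.972 for kn1 and 0.914 for lg3. In bulk shoot tissue, fewer cells of a type and less RNA per cell cannot be told apart, and the part of tissue make-up in the values above was not tested.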

How the data were processed

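The authors deposited 1 processed intensity, on a linear scale, for each probe set of each array. MAS5 is named in the submitters' processing notes, with neither version nor role. Scaling and genome build are not stated in those notes, the labels or the file. Medians of the arrays ran from 135.6 to 142.3, so log2 was taken without further normalization. Precision is limited by 4 arrays per genotype. Array controls (113 of 17734 probe sets) were dropped. Of the rest, 1452 had 1 annotated gene, 1 had several and 16168 had none. Names came from the platform annotation through gene numbers and synonyms in RefSeq (Zm-B73-REFERENCE-NAM-5.0), in which 1377 matched. Only names, chromosomes and the order of genes were taken from that table. A further numbered gene of that table, gst20, was not analysed here.

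Probe sets under the 30th percentile of mean log2 value were left out. Differences were fitted with limma 3.58.1 in R 4.3.3 (lmFit, eBayes with trend), with a single genotype term and Benjamini-Hochberg adjustment over 12335 probe sets. Seed source was fitted with duplicateCorrelation over replicate number (consensus correlation 0.225). The code was tested on simulated data. Same-numbered pools share a sowing and seed source per the labels, and their deviations from group means correlated at 0.36, 0.51, 0.56 and 0.33, so the numbers pair the samples. List genes were read by their brightest probe set.

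Pool values are given in full for members past the threshold in either fit, with an unadjusted p under 0.05, or among the 8 largest differences. They are also given for members with probe sets of opposite sign, except the dim probe set of gst13, given by range. Members with the 4 smallest p by seed source and pathway list genes past the threshold in either fit are likewise given in full. Marker genes are given without pool values. The 2 smallest p of each list are named, as are others outside the rule. Members and lists were chosen with earlier results of these data known. Alternatives covered the block, normalization, a pseudocount, the filter, the trend, seed source, RNA quality and each array left out. The covariate together with the block was chosen after seeing the data.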

Additional observations from a re-analysis of the deposited data

Results flagged for a closer look

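GST26 in wild-type replicate 2 stood apart from its group: its intensity was 232.0, against 169.4 to 174.2 in the other 3 wild-type pools. The gap to the nearest pool was 0.911 of the range of the group on the log2 scale, above Dixon's 95% critical value for a group of 4. This was 1 of 70 groups of 4 pools examined, and chance alone flags about 5% of groups, or 3.5 of 70.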

How the results depend on the processing

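Genotype calls among members numbered 1 in the reported fit, 0 without the filter or the mean-variance trend and with the RNA quality covariate, and 0 to 1 with single pools left out. They were 0 with the 50th percentile filter, which removed gst42 from the test, and 2 with the covariate and the replicate block together, gst19 (0.47) and GST25 (-0.83), a fit with few residual degrees of freedom. gst42 kept its direction under all 17 alternatives that tested it (0.48 to 0.85) and passed in 7, with adjusted p from 0.0227 to 0.340; it missed at 0.0716 without the filter and 0.0514 without the trend. Array-wide calls were 601, 1253 with the replicate block, 337 with the covariate and 717 with covariate and block. They were 389 to 643 with single pools left out, lowest without wild-type replicate 4. Pathway list calls were 0, 2 with the replicate block, 1 with covariate and block, and 0 to 1 with single pools left out (1 without wild-type replicate 1). The 2 calls with the block were 6.25% of the tested list genes, against 10.2% of all tested probe sets. Signs turned for gst41 (0.00084 with covariate and block), GST38 (-0.0092 with the covariate), GST25 (-0.0094 with the pseudocount of 16, -0.43 to 0.29 with single pools left out) and gst19 (-0.085 to 0.27 with single pools left out); the cause was not tested. The difference in per-pool medians ran from 0.027 to 0.11 with single pools left out and was 0.069 with the replicate block. Seed source and interaction calls among members were 0 under every alternative run. The replicate block changed no other member call.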
